A study of Homo sapiens with 95 samples.

Results

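The receptors for fibroblast growth factors (FGFs) were described in AALE, a human airway line made from immortalized cells of the bronchial epithelium. The 5 members FGFR1, FGFR2, FGFR3, FGFR4 and FGFRL1 were taken by their symbols from the 27978 genes listed for every sample, of which 22764 had a read in at least 1 sample, and all 5 were listed in all 95 samples. FGFR1 to FGFR4 are receptor tyrosine kinases. A bound FGF ligand, held by heparan sulfate on the cell surface, brings receptors together so that they phosphorylate the adaptor FRS2, from which the signal runs through RAS, RAF, MEK and ERK. FGFRL1 binds FGFs with the same kind of immunoglobulin-like domains but has no kinase domain. In airway epithelium FGFR2 in its epithelial splice form is known for its part in lung branching and repair, FGFR1 is amplified in a share of squamous lung tumors, and Sprouty and DUSP proteins dampen the signal as feedback inhibitors.

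The samples were profiled with sparse full length (SFL) sequencing, a pooled RNA-seq method with a barcode pair for each sample. The data held 8 genotypes. CRISPR knockouts of FAT1 and of CDKN2A had as their control the GFP line, which received the Cas9-EGFP plasmid PX458 with no sgRNA. Lines that overexpressed NRF2 (the gene NFE2L2), FGFR1, NRG1 or PIK3CA had as their control the HcRed line, which carried the empty vector with that reporter. Exposures were DMSO, condensate of cigarette smoke (CSC) at 24 μg/ml, the polycyclic hydrocarbon benzo(a)pyrene (BaP) at 173 μM, and NNK, a nitrosamine found in tobacco, at 490 μM. Every genotype had all 4, which gave 32 combinations with 3 samples each, except that the FGFR1 line under CSC had 2. Whether a line was 1 clone or a pool of cells, and how long the exposure lasted, is not given in the sources used here. The study calls the samples of a combination biological replicates, while the sources used here do not say whether these were separate cultures, so that p-values measure the spread between these samples.

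Totals lay between 287446 and 2116383 counted reads per sample, with a median of 934235, so that 3 reads of a gene correspond to between 1.42 and 10.4 CPM, the count of a gene scaled to the total counted reads of its sample. The targeted genes followed the labels over the 4 treatments. FAT1 lay between 66.5 and 129 CPM in its knockout line against 260.0 to 451 CPM in GFP, and CDKN2A between 35.1 and 66.8 CPM against 79.1 to 147 CPM. NFE2L2 lay between 1317 and 1785 CPM in the NRF2 line against 191 to 247 CPM in HcRed, NRG1 between 4655 and 6929 CPM against 6.19 to 33.2 CPM, and PIK3CA between 449 and 619 CPM against 63.0 to 101 CPM. All 10 airway epithelium markers examined, among them the keratin KRT5 and the transcription factor TP63, had reads in each of the 84 samples without the FGFR1 line. Their summed level was between 5226 and 13998 CPM in those samples. The keratins KRT5, KRT6A and KRT17 had the highest means, at 3251, 1656 and 1103 CPM, so that the sum follows mostly these genes. The 3 endothelial markers summed to at most 3.42 CPM there, and CDH5 had no read in any of these samples. Of the fibroblast markers only COL1A1 averaged 10 reads or more, and PDGFRB had no read in 69 of the 84 samples. Of the leukocyte markers only CD68 did, and CD3E had no read in any of them.

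The promoters of the receptors are shown first, since BaP and NRF2 are known for DNA motifs of their own. The aryl hydrocarbon receptor, which binds ligands such as BaP, recognizes DNA with the core GCGTG (on the other strand CACGC). NRF2 recognizes the antioxidant response element, whose core is TGACNNNGC (on the other strand GCNNNGTCA). The sequences are the 250 bases before a transcription start in RefSeq on GRCh38.p14, read 5′ to 3′ on the strand of the gene, in lower case with matches to either core in capitals. The FGFRL1 sequence is chr4:1012214-1012463 on the plus strand. The FGFR3 sequence is chr4:1793043-1793292 on the plus strand. The FGFR2 sequence is chr10:121598445-121598694 on the minus strand, and of the 5 starts listed for FGFR2 it is the one furthest upstream.
FGFRL1: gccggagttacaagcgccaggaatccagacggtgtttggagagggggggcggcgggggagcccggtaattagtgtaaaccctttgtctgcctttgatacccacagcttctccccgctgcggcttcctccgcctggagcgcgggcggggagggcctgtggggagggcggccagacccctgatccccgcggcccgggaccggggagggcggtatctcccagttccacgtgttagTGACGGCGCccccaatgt
FGFR3: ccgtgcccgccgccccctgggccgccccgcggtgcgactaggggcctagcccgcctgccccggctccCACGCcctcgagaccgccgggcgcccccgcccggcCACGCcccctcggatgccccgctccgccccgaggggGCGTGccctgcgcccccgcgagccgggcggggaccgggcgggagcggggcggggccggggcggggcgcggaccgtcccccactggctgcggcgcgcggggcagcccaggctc
FGFR2: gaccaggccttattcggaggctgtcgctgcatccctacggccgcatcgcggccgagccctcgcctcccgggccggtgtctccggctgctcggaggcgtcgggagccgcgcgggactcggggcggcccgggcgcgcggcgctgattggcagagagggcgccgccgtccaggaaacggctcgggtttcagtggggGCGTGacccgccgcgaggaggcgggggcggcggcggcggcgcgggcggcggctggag

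FGFR3 held 3 matches to GCGTG and the FGFR2 sequence held 1, while FGFRL1 and the other 4 starts of FGFR2 held none. For comparison, 32.2% of 35116 promoter sequences of this length held at least 1 match. The antioxidant core had 1 match, in FGFRL1, against 10.9% of all promoter sequences. GC content was 86.8% before the FGFR3 start, 78.4% before the FGFR2 start and 67.6% before the FGFRL1 start. Of the 2 starts listed for FGFR4, one had 2 matches to GCGTG and the other none. No promoter entry was used for FGFR1. These matches are letters in a window and do not show that a protein binds there.

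In the genome (GRCh37, GENCODE models) FGFR3 lies on the plus strand of chr4:1795020-1810599 and FGFRL1 on the plus strand of chr4:1003724-1020686. FGFR4 is on the plus strand of chr5:176513906-176525145, FGFR2 on the minus strand of chr10:123237846-123357972 and FGFR1 on the minus strand of chr8:38257733-38326352. The MANE Select transcripts have 18 exons in FGFR1 to FGFR4 and 7 in FGFRL1. Counts were given per gene, so that splice forms of FGFR2 were not measured.

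Over the 84 samples without the FGFR1 line FGFR3 had the highest mean of the 5 receptors, but the order differed by line. Per kilobase of its MANE Select transcript FGFR3 had 25.6 ± 10.4 CPM per kb (SD, n = 84), followed by FGFRL1 with 20.9 ± 6.26, FGFR1 with 8.79 ± 2.82, FGFR2 with 5.27 ± 2.51 and FGFR4 with 2.05 ± 1.46. FGFR3 was the highest of the 5 in 53 of the 84 samples and FGFRL1 in the other 31. In the NRG1 line FGFRL1 had 21.9 ± 5.66 CPM per kb (SD, n = 12) against 13.8 ± 2.76 for FGFR3, and in the PIK3CA line 25.0 ± 4.93 against 17.1 ± 3.59. In the FAT1 line FGFR2 had 7.08 ± 1.57 against 5.34 ± 1.61 for FGFR1, and in the NRF2 line 8.05 ± 2.30 against 7.77 ± 2.55. FGFR4 was the lowest in 75 samples, FGFR2 in 8 and FGFR1 in 1. The spreads of the neighbours FGFR3 and FGFRL1 overlap, and so do those of FGFR1 and FGFR2. With the merged exons of all GENCODE transcripts as the length, the order of the means was the same except that FGFR4 and FGFR2 were level, at about 1.3 CPM per kb. These lengths are models, and the transcripts that AALE cells make were not measured.

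The depth differed between the members. Mean counts over the 84 samples were 100.2 reads for FGFR3, 66.1 for FGFRL1, 47.3 for FGFR1, 22.5 for FGFR2 and 5.80 for FGFR4. FGFR4 had between 0 and 40 reads per sample, with 2 samples at 0 reads, 1 in the FAT1 line under CSC and 1 in the NRG1 line under BaP. The median SD of log2 CPM between replicates of a combination was 0.18 for FGFR3, 0.21 for FGFRL1, 0.23 for FGFR2, 0.25 for FGFR1 and 0.50 for FGFR4. When the FGFR1 line and HcRed were compared within 1 treatment, the SE of the log2 difference of FGFR4 was between 0.53 and 0.58. Under DMSO its 95% interval ran from -0.84 to 1.22, so that differences larger than this spread could also go undetected.

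The FGFR1 line was compared with HcRed to see how far the introduced gene raised FGFR1 and whether other receptors moved with it. Under DMSO the FGFR1 line had 1071, 1069 and 985 CPM of FGFR1, while HcRed had 49.9, 51.8 and 29.5 CPM. Under CSC its 2 samples had 1334 and 1282 CPM, against 55.5 to 62.3 CPM in HcRed. It had between 1063 and 1196 CPM under BaP, against 45.0 to 48.0 CPM, and between 1205 and 1392 CPM under NNK, against 52.7 to 70.3 CPM. Every FGFR1-line sample was above every other sample of the series, among which the highest had 93.5 CPM.

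**Figure D1:**
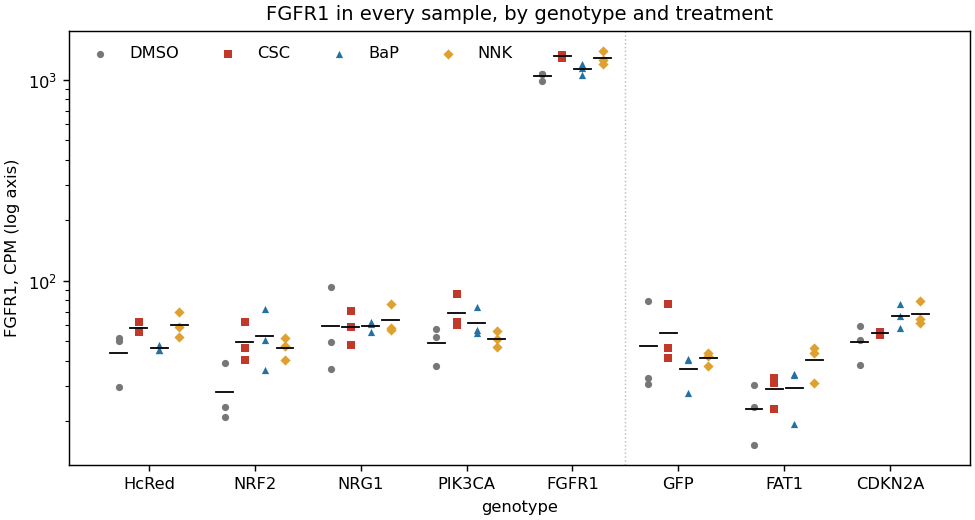
FGFR1 in all 95 samples, in CPM on a log axis, by genotype. Each point is a sample, marker shape and color give the treatment, the black bar is the mean of a combination, and the dotted line separates the lines compared with HcRed (left) from those compared with GFP (right). The 11 samples of the FGFR1 line lie between 985 and 1392 CPM, and the FAT1 line holds the lowest sample at 15.2 CPM.

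In limma-voom fits of the FGFR1 line against HcRed, FGFR1 was the largest rise of all genes tested in each treatment. The log2 fold change was 4.61 ± 0.15 (SE) under DMSO with adjusted p = 3.23e-33, 4.48 ± 0.12 under CSC with adjusted p = 7.48e-59, 4.62 ± 0.15 under BaP with adjusted p = 4.06e-36, and 4.43 ± 0.15 under NNK with adjusted p = 1.01e-81. Of the 5 receptors 1 passed in each fit, where 1.86% of all genes tested passed under DMSO, 2.83% under CSC, 1.42% under BaP and 2.47% under NNK. Over all 4 treatments the difference was 4.54 ± 0.07, a 23.2-fold higher level. A change of this difference with the chemicals was not detectable. No receptor passed the test of an interaction between the FGFR1 line and the chemicals (FGFR1 adjusted p = 0.977, limma-voom F test), in which 0.0349% of all genes passed. The unadjusted p of the 5 receptors lay between 0.164 and 0.727 there. The counts do not separate reads of the introduced gene from those of the gene on the chromosome.

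No other receptor passed a test in the FGFR1 line, in single treatments or over all of them, where 13.5% of the 14347 genes tested passed, and none did by edgeR or DESeq2. In the single treatments FGFR2 and FGFR3, both under CSC, had an unadjusted p under 0.05. Over all treatments FGFR2 differed by -0.18 on the log2 scale with an interval of -0.44 to 0.07 (95%, from the SE). FGFR3 differed by -0.08 with an interval of -0.24 to 0.08, and FGFRL1 by -0.13 with -0.32 to 0.05. The interval of FGFR4 was wider, from -0.55 to 0.47. Under CSC FGFR2 had 12.6 and 12.7 CPM in the FGFR1 line against 16.6 to 21.8 CPM in HcRed, a log2 difference of -0.63 ± 0.31 with adjusted p = 0.333. FGFR1 made up between 82.6% and 88.7% of the reads of the 5 receptors in this line, against 6.92% to 42.9% in the other samples.

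The genes next to FGFR1 on the chromosome were tested as well. Of the 5 nearest listed genes on each side, 9 could be tested over all treatments and 2 passed, beside 13.5% of all genes tested. They were DDHD2 at 0.26 ± 0.08 (adjusted p = 0.0199) and TACC1 at 0.16 ± 0.06 (adjusted p = 0.0374). NSD3, the nearest at 17.9 kb, had a log2 difference of 0.06 ± 0.06. LETM2 overlaps the FGFR1 gene model on the opposite strand and had -0.07 ± 0.23 at a mean of 7.39 reads. The strand setting of the counting is not given in the sources used here.

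Few genes of the FGF family had more than a low level in AALE cells. Of 22 FGF genes 5 had a mean count above 1 over the 84 samples, namely FGF1, FGF2, FGF5, FGF11 and FGF14. FGF2 alone averaged over 10 reads, and FGF3, FGF6 and FGF10 had no read in any of these samples. The list takes in the whole family, and which of its members act as ligands of the receptors was not examined. FGF2, a ligand that binds several of the receptors, rose in the FGFR1 line by 0.92 ± 0.18 (adjusted p = 7.67e-05), the 1 FGF gene of the 4 tested that passed. Among coreceptors and FGF-binding surface genes 2 of 13 rose and 3 fell, beside 13.5% of all genes called in either direction. GPC6, a glypican, rose by 1.66 ± 0.38 and FLRT2 by 0.64 ± 0.15, while SDC1, a syndecan, fell by 0.53 on the log2 scale. GPC6 averaged 2.51 reads over the 84 samples without the FGFR1 line and had no read in 23 of them. Of 15 kinase cascade genes 1 passed, a share below that of all genes, and it fell.

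Part of the genes known to follow ERK activity were lower in the FGFR1 line than in HcRed. Of the 10 feedback inhibitors 4 fell and none rose, where 13.5% of all genes passed in either direction, with a list median of -0.45 beside 0.00 over all genes tested. DUSP6, a phosphatase of ERK, changed by -0.94 ± 0.15 (adjusted p = 1.53e-06), and DUSP4 by -0.56 ± 0.08. Of 11 ERK-responsive genes tested 6 fell and 1 rose, the early gene IER2, and the list median was -0.46. CCND1, which encodes cyclin D1, changed by -1.22 ± 0.08 (adjusted p = 2.16e-20), and ETV5 by -0.90 ± 0.15. CCND1 also fell within each of the 4 treatments.

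In 3 of the other lines FGFR2 and FGFR3 both passed, with the same direction within a line. They fell in the NRG1 line, which overexpresses a ligand of ERBB receptors, and in the PIK3CA line, which overexpresses the catalytic subunit of PI3-kinase. They rose in the line with NRF2, the activator of antioxidant genes. These 3 comparisons share the HcRed samples. The summed level of the airway epithelium markers, mostly keratins, was between 9488 and 12957 CPM in HcRed. It had lower ranges that did not overlap HcRed in the NRG1 line (7166 to 8580 CPM) and the PIK3CA line (6056 to 7474 CPM). In the NRF2 line it was between 8260 and 13998 CPM. FGFR2 and FGFR3 did not pass against HcRed in GFP or in the FGFR1 line. The sum was between 6760 and 9016 CPM in GFP, also below HcRed, and between 7027 and 10414 CPM in the FGFR1 line. The part of these markers in the receptor results was not tested. Of the 5 receptors 2 passed in the NRG1 line, where 10.8% of all genes tested passed, 3 in the PIK3CA line, where 27.8% passed, and 2 in the NRF2 line, where 21.6% passed.

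FGFR2 had a lowest, median and highest level of 16.6, 25.4 and 37.4 CPM over the 12 HcRed samples. In the NRG1 line the same values were 3.71, 12.8 and 20.2 CPM. In the PIK3CA line they were 4.05, 10.2 and 15.3 CPM, so that every PIK3CA sample was below every HcRed sample. The log2 fold changes were -1.08 ± 0.16 in the NRG1 line (adjusted p = 9.11e-07) and -1.39 ± 0.16 in the PIK3CA line (adjusted p = 6.22e-11). The NRG1 samples lay below all HcRed samples of the same treatment in 3 of the 4 treatments and the PIK3CA samples in all 4. In the NRF2 line FGFR2 had 21.6, 37.7 and 53.7 CPM and rose by 0.47 ± 0.12 (adjusted p = 0.00131), with a positive difference in each of the 4 treatments. With the DMSO samples alone this rise was 0.48 with adjusted p = 0.158.

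FGFR3 had 81.4, 113 and 145 CPM over the HcRed samples, again as lowest, median and highest. In the NRG1 line it had 42.5, 58.3 and 82.6 CPM and in the PIK3CA line 44.5, 73.1 and 92.5 CPM. The ranges of both lines overlapped that of HcRed, but within a treatment the NRG1 samples lay below all HcRed samples in 3 of 4 treatments and the PIK3CA samples in 2. The NRF2 line had 144, 176 and 255 CPM, and its samples lay above the HcRed samples of the same treatment in all 4. The log2 fold changes were -0.89 ± 0.09 in the NRG1 line (adjusted p = 4.25e-12), -0.59 ± 0.08 in the PIK3CA line (adjusted p = 1.57e-08) and 0.74 ± 0.07 in the NRF2 line (adjusted p = 3.51e-14). Under DMSO alone the individual values were 158, 170 and 179 CPM in the NRF2 line, 87.5, 87.8 and 104 CPM in HcRed, and 42.5, 44.8 and 56.4 CPM in the NRG1 line.

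**Figure D2:**
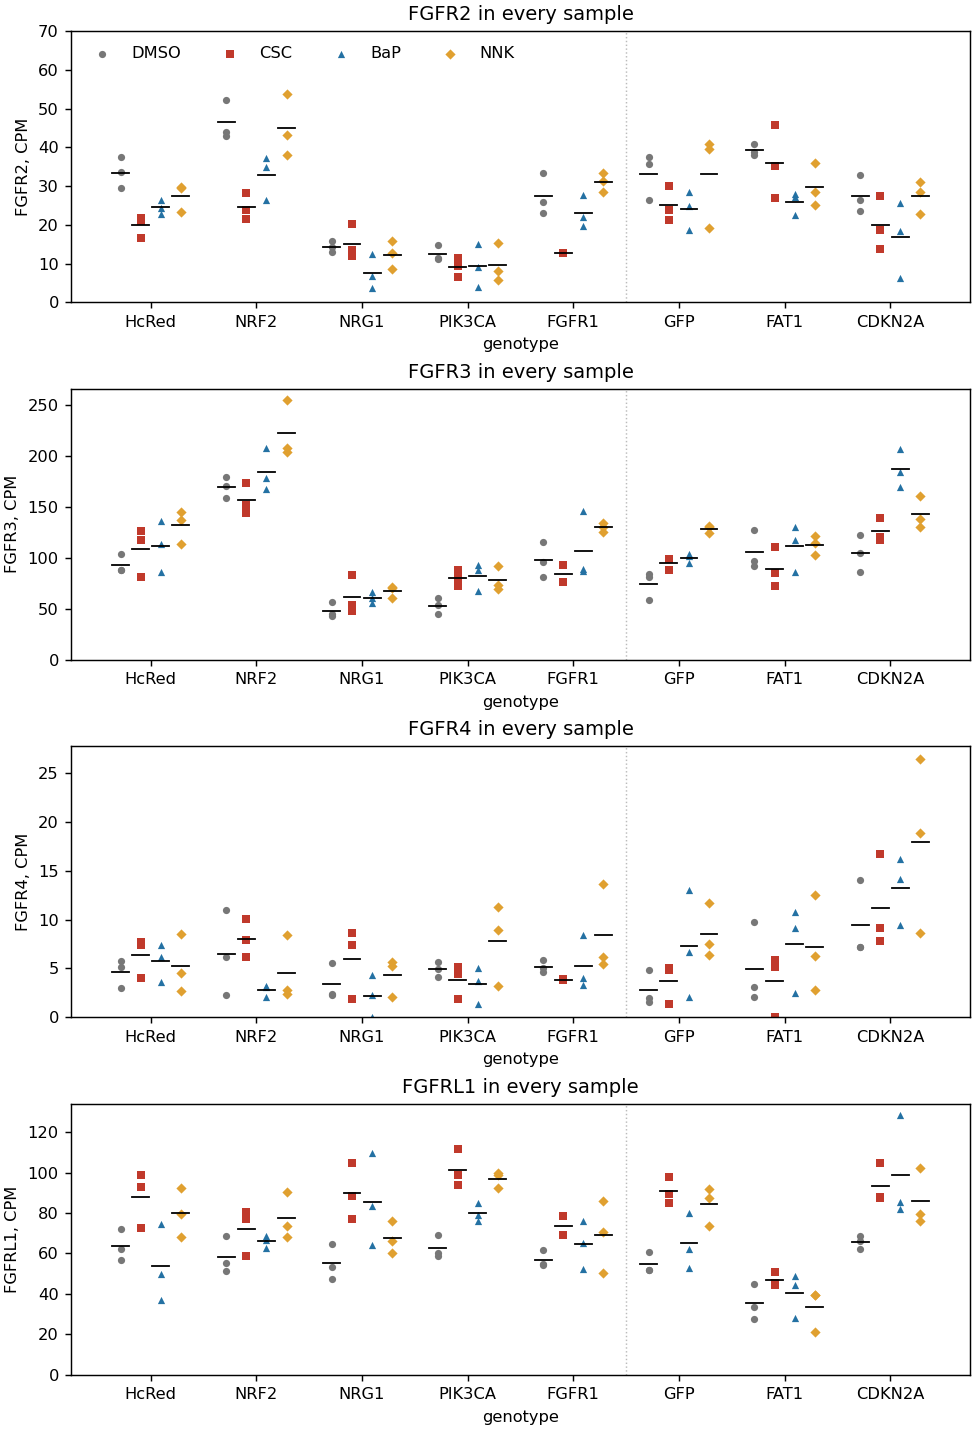
FGFR2, FGFR3, FGFR4 and FGFRL1 in all 95 samples, in CPM on linear axes, by genotype. Each point is a sample, marker shape and color give the treatment, the black bar is the mean of a combination, and the dotted line separates the lines compared with HcRed (left) from those compared with GFP (right). FGFR2 and FGFR3 are low in the NRG1 and PIK3CA lines, FGFR4 is highest in the CDKN2A line, and FGFRL1 is lowest in the FAT1 line.

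The remaining receptors changed less in these lines. FGFR1 did not pass in any of them, with 0.27 ± 0.11 in the NRG1 line (adjusted p = 0.0968), 0.16 ± 0.10 in the PIK3CA line and -0.21 ± 0.11 in the NRF2 line. One NRG1 sample under DMSO had 93.5 CPM of FGFR1 beside 49.8 and 36.5 CPM in the other 2. FGFRL1 rose in the PIK3CA line by 0.20 ± 0.08 (adjusted p = 0.0491), a call that several other settings lost. The values of FGFR4 were -0.44 ± 0.29 in the NRG1 line, -0.28 ± 0.27 in the PIK3CA line and -0.09 ± 0.27 in the NRF2 line, and none passed.

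Feedback and ERK-responsive genes were counted in the same lines. In the NRG1 line, where 10.8% of all genes passed in either direction, 7 of 10 feedback inhibitors rose and none fell, led by SPRY4 at 0.99 ± 0.17, and 9 of 11 ERK-responsive genes rose while 1 fell. In the PIK3CA line, where 27.8% of all genes passed, 4 of 10 feedback inhibitors rose and none fell, with a list median of 0.08, again led by SPRY4 at 1.32 ± 0.15, and 8 ERK-responsive genes rose and 2 fell. In the NRF2 line, where 21.6% passed, 4 of 10 feedback inhibitors and 9 of 11 ERK-responsive genes fell and none rose. DUSP6 changed by -1.21 ± 0.16 there and PHLDA1 by -1.28 ± 0.13. The list medians of the ERK-responsive genes were 0.39 in the NRG1 line, 0.38 in the PIK3CA line and -0.54 in the NRF2 line, beside medians of all genes between -0.01 and 0.00. FGF2 rose in the NRG1 line by 0.66 ± 0.18 and in the PIK3CA line by 1.02 ± 0.16.

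**Figure D3:**
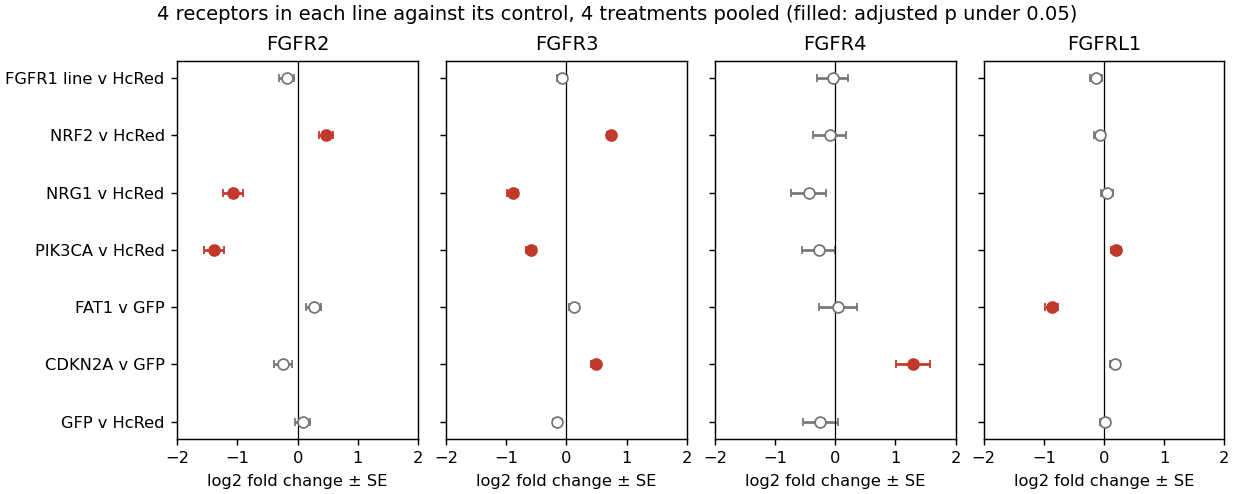
Log2 fold change with its standard error (horizontal axis) of FGFR2, FGFR3, FGFR4 and FGFRL1 in each line against its control (rows), from limma-voom fits over the 4 treatments. Filled red points have an adjusted p under 0.05 and open points do not. FGFR2 and FGFR3 are shifted to the left for NRG1 and PIK3CA and to the right for NRF2, while the FGFR1 line sits near 0 for all 4.

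The knockout lines were compared with GFP. In the FAT1 line, a knockout of the gene of a large atypical cadherin in which reads of that gene remained, FGFR1 and FGFRL1 fell. FGFRL1 had a lowest, median and highest level of 21.3, 42.0 and 50.9 CPM over the 12 FAT1 samples and of 51.9, 76.9 and 97.6 CPM over the 12 GFP samples, with no overlap. The log2 fold change was -0.87 ± 0.11 with adjusted p = 5.64e-11. FGFR1 had 15.2, 31.1 and 46.4 CPM in the FAT1 line against 27.8, 41.3 and 79.1 CPM in GFP, and changed by -0.58 ± 0.14 (adjusted p = 0.000465). These were 2 of 5 receptors in a comparison where 48.9% of all genes tested passed. One GFP sample under DMSO had 79.1 CPM of FGFR1 beside 32.9 and 30.7 CPM in the other 2. Without the samples numbered 3, which include it, the FGFR1 change was -0.35 with adjusted p = 0.0536. FGFR2 (0.27 ± 0.13) and FGFR3 (0.12 ± 0.08) did not pass.

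CDKN2A is the gene of the cell cycle inhibitors p16 and p14ARF, and in its knockout line, in which reads of the gene remained, FGFR4 was highest. FGFR4 had 7.18, 11.8 and 26.5 CPM as lowest, median and highest over its 12 samples, and 1.33, 4.96 and 13.1 CPM in GFP. The counts behind this were 4 to 40 reads per sample against 1 to 7. The log2 fold change was 1.29 ± 0.28 (adjusted p = 4.91e-05), and the CDKN2A samples lay above all GFP samples in 2 of the 4 treatments. FGFR3 rose by 0.49 ± 0.08 (adjusted p = 1.31e-07), with medians of 134 CPM against 98.6 CPM, and by 0.27, which still passed, when a trend with GC content and exon length was removed from each sample. FGFR1 rose by 0.40 ± 0.12 (adjusted p = 0.00406), which was 0.17 with adjusted p = 0.360 without the samples numbered 1 and 0.32 with adjusted p = 0.0650 without those numbered 2. FGFRL1 (0.19 ± 0.09, adjusted p = 0.0609) and FGFR2 (-0.25 ± 0.15) did not pass. The 3 of 5 receptors that rose stand beside 57.6% of all genes called in either direction.

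FGF2 rose in both knockout lines, by 1.98 ± 0.25 in the FAT1 line and by 1.93 ± 0.23 in the CDKN2A line, which share the GFP samples. In the CDKN2A line, where 57.6% of all genes passed in either direction, 8 of 10 feedback inhibitors and all 11 ERK-responsive genes tested rose, with DUSP6 at 2.94 ± 0.17 and CCND1 at 1.92 ± 0.09. In the FAT1 line, where 48.9% passed, 3 of 10 feedback inhibitors rose and 2 fell, a share close to that of all genes. Of 11 ERK-responsive genes 5 rose and 4 fell there, and FOS changed by 1.34 ± 0.12 and ETV1 by -1.69 ± 0.24. Of 12 coreceptors and FGF-binding surface genes tested in the FAT1 line 3 rose and 3 fell, a share close to that of all genes. Among those that fell, FGFBP1, a secreted protein that carries FGFs, changed by -2.19 ± 0.12. Of 4 regulators of FGFR2 splicing, 3 fell and 1 rose in the CDKN2A line, beside 57.6% of all genes called in either direction. Among those that fell, ESRP1 and ESRP2, which promote the epithelial splice form of FGFR2, changed by -0.40 ± 0.05 and -0.51 ± 0.09.

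**Figure D4:**
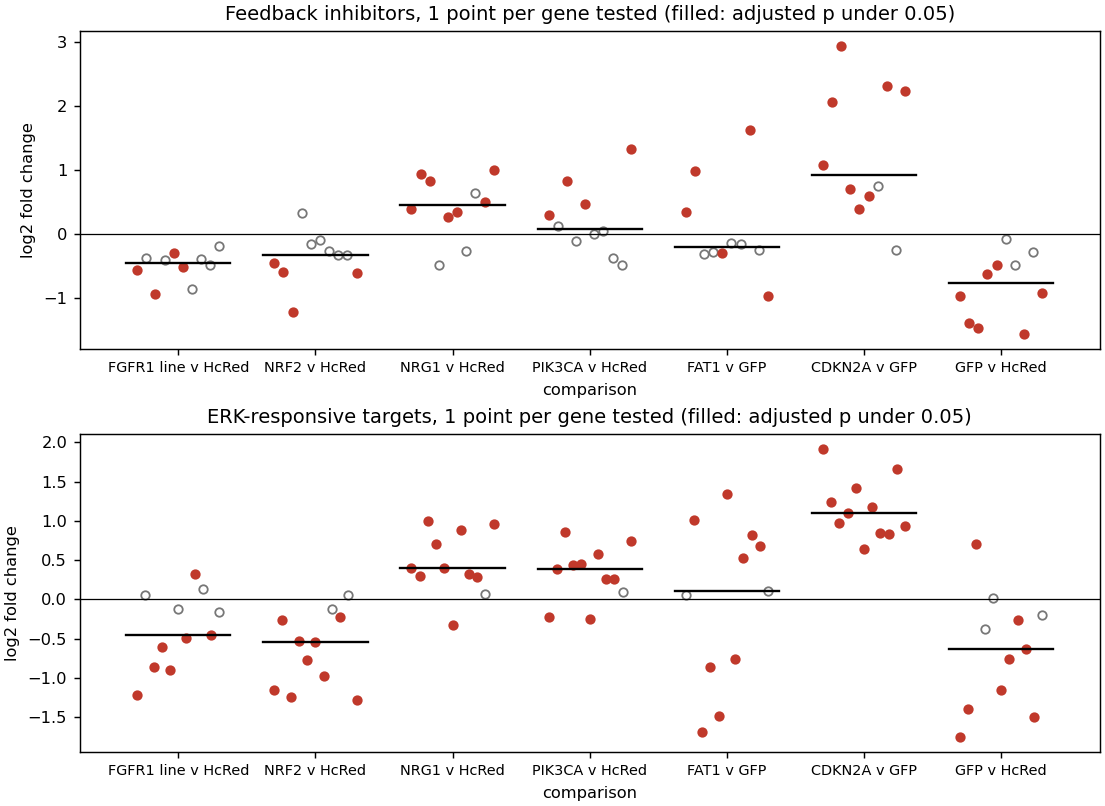
Log2 fold changes (vertical axes) of the 10 feedback inhibitors (top) and the 11 ERK-responsive genes tested (bottom) in each line against its control, over the 4 treatments. Each point is a gene, filled red where the adjusted p is under 0.05, and the black bar is the list median. Both medians are below 0 in the FGFR1 and NRF2 lines and in GFP against HcRed, the feedback median is also below 0 in the FAT1 line, and both are highest in the CDKN2A line.

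The control lines themselves differed in many genes, as 45.0% of genes tested passed between GFP and HcRed, but none of the 5 receptors did by limma-voom, edgeR or DESeq2. FGFR3 alone had an unadjusted p under 0.05, at -0.15 ± 0.08 with adjusted p = 0.0956. FGFR1 differed by -0.20 ± 0.12 (adjusted p = 0.148) with all samples, and by -0.33 with adjusted p = 0.00985 when the 2 libraries with a high FGFR1 level under DMSO, 1 of GFP and 1 of NRG1, were left out. The feedback list differed between the controls, with 7 of 10 genes lower in GFP and a median of -0.77, and CCND1 differed by -1.75 ± 0.09. Of the 3 FGF genes tested 1 passed and was lower in GFP, with a list median of -0.72. The knockout lines were compared with GFP alone.

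The chemicals were compared with DMSO over the 7 genotypes without the FGFR1 line, 21 samples against 21. In these fits 4 of 5 receptors passed under each chemical, in comparisons where 53.6% of all genes passed under CSC, 49.6% under BaP and 49.1% under NNK. FGFR2 fell under CSC and BaP, FGFR1, FGFR3 and FGFRL1 rose under all 3, and FGFR4 rose under NNK. Under all 3 chemicals the change of a gene moved with its GC content. Genes were put into 5 bins of equal size by GC content. In the bin with the highest GC content the median log2 fold change was 0.44 under CSC, 0.42 under BaP and 0.43 under NNK, and in the bin with the lowest it was -0.27, -0.24 and -0.26. Several line comparisons had smaller trends. From the lowest to the highest bin the median went from -0.05 to 0.20 in the FAT1 line and from -0.10 to 0.19 in the CDKN2A line. It went from 0.09 to -0.13 in GFP against HcRed and from -0.07 to 0.08 in the NRF2 line. In the FGFR1, NRG1 and PIK3CA lines it stayed between -0.05 and 0.03 over all treatments. Within single treatments the FGFR1 line had larger trends, from 0.10 to -0.12 under CSC, from 0.07 to -0.12 under NNK and from -0.06 to 0.09 under BaP. Under DMSO it went from -0.01 to 0.04. FGFR3, FGFR4 and FGFRL1 belong to the highest bin, with 62.4%, 62.6% and 65.5% GC in their exons, FGFR1 with 54.1% to the next one, and FGFR2 with 46.5% to the middle one. The receptor results under the chemicals are given with and without a GC and length trend.

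FGFR2 was the receptor whose fall stood in both fits. Its median over 21 samples was 32.8 CPM under DMSO, 21.4 under CSC, 22.7 under BaP and 28.4 under NNK, and the ranges overlapped, from 11.1 to 52.3 CPM under DMSO and from 6.60 to 45.9 CPM under CSC. The log2 fold change was -0.45 ± 0.10 under CSC (adjusted p = 4.16e-05) and -0.53 ± 0.10 under BaP (adjusted p = 7.33e-06). With the trend removed it was -0.39 ± 0.10 under CSC and -0.41 ± 0.10 under BaP, and both still passed. Under NNK it was -0.16 ± 0.10 with adjusted p = 0.174, and -0.14 with the trend removed, which did not pass either. With no trend removed, FGFR2 was lower than under DMSO in 6 of 7 genotypes with CSC and in 7 of 7 with BaP and with NNK. Under NNK the smallest of these differences was -0.005 in mean log2 CPM, and the share of all genes with such counts was not computed.

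FGFRL1 had medians of 58.5 CPM under DMSO, 88.1 under CSC, 68.5 under BaP and 76.1 under NNK. Its log2 fold change was 0.56 ± 0.06 under CSC (adjusted p = 9.88e-14), 0.28 ± 0.07 under BaP and 0.40 ± 0.07 under NNK. With the trend removed these became 0.01, -0.23 and -0.12, of which the value under BaP passed as a fall (adjusted p = 0.00696). With no trend removed, FGFRL1 was higher than under DMSO in 7 of 7 genotypes with CSC, and in 5 of them all CSC samples were above all DMSO samples. In its GC bin 67.6% of genes rose under CSC, and the share of all genes with such counts was not computed. With the GFP and HcRed lines alone the BaP value was 0.03 with adjusted p = 0.913.

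FGFR3 had medians of 87.5 CPM under DMSO, 98.5 under CSC, 104 under BaP and 124 under NNK. The log2 fold changes were 0.16 ± 0.06 under CSC (adjusted p = 0.0245), 0.36 ± 0.06 under BaP (adjusted p = 1.28e-06) and 0.47 ± 0.06 under NNK (adjusted p = 4.73e-11). Removing the trend turned the CSC value to -0.27 with adjusted p = 0.00012 and the BaP value to -0.06, and left 0.02 under NNK. FGFR1 rose by 0.34 ± 0.10 under CSC, 0.26 ± 0.10 under BaP and 0.32 ± 0.10 under NNK, and its values with the trend removed were 0.16, 0.16 and 0.10, none of which passed. FGFR4 passed under NNK alone, at 0.51 ± 0.21 (adjusted p = 0.0380), and was at 0.08 with the trend removed. Under CSC and BaP its values of 0.19 and 0.25 became -0.25 and -0.20, and none of these passed.

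**Figure D5:**
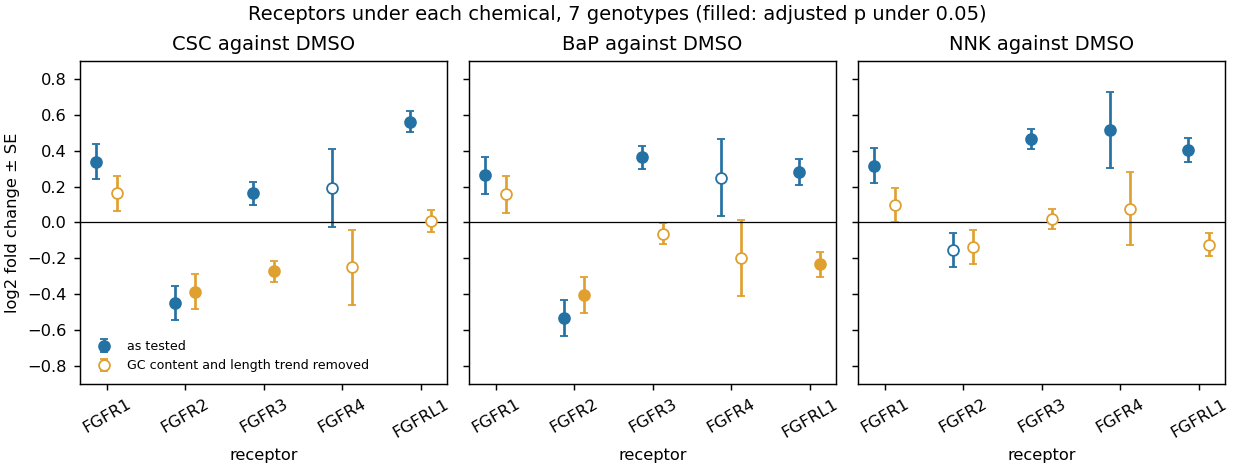
Log2 fold change with its standard error (vertical axis) of the 5 receptors under CSC, BaP and NNK against DMSO over 7 genotypes, as tested (blue) and after a trend with GC content and exon length was removed from each sample (orange). Filled points have an adjusted p under 0.05. FGFR2 keeps its call under CSC and BaP with a smaller change, while FGFR3 and FGFRL1 move from above 0 to 0 or below.

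The response of FGFR3 to the chemicals differed between genotypes, with adjusted p = 0.0374 in the limma-voom F test of the interaction over 7 genotypes, where 2.58% of genes passed and FGFR3 was the 1 receptor that did. Under BaP the difference from DMSO in mean log2 CPM was 0.84 in the CDKN2A line, where the samples had 169, 184 and 206 CPM against 86.3, 105 and 122 CPM under DMSO. It was 0.61 in the PIK3CA line, 0.24 in HcRed and 0.07 in the FAT1 line. Under CSC the difference lay between -0.24 in the FAT1 line and 0.59 in the PIK3CA line. Under NNK it was positive in all 7 genotypes, from 0.11 in the FAT1 line to 0.79 in GFP, with no GC and length trend removed. The interaction did not pass with the GC and length trend removed (adjusted p = 0.265) or without the samples numbered 1 (adjusted p = 0.334) or 2 (adjusted p = 0.479).

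For the pathway lists under the chemicals the values are as tested, with no GC and length trend removed. Of all genes 53.6% passed under CSC, 49.6% under BaP and 49.1% under NNK, in either direction. All 11 ERK-responsive genes tested rose under CSC, with FOS at 2.05 ± 0.10 and EGR1 at 1.87 ± 0.08, and 8 rose under BaP and under NNK. Of the feedback inhibitors 8 rose and none fell under CSC, 5 rose and 1 fell under BaP, and 5 rose and 1 fell under NNK. GPC1, a glypican that binds FGFs, rose under each chemical by between 0.69 and 0.88. KLB, the coreceptor for endocrine FGFs, changed by between -0.94 and -1.26 at a mean of 3.06 reads. These 3 comparisons share the DMSO samples.

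As a description, the genes whose group means of log2 CPM most resembled each receptor over the 28 combinations without the FGFR1 line were sought among the 10048 genes that averaged 10 reads or more. Nearest to FGFR3 were the basal keratin KRT15 (Pearson r = 0.90), the transcription factor CEBPA (0.87) and the myosin MYH14 (0.86). Nearest to FGFR2 were VAV3 (0.85), MTA3 (0.84) and PERP, a desmosomal protein (0.82). Nearest to FGFRL1 were HMGA1, a chromatin protein (0.90), CTBP1 (0.88) and the glycolytic enzyme ENO1 (0.86), and nearest to FGFR1 were the actin crosslinker ACTN1 (0.85), CPNE2 (0.84) and the kinase PLK3 (0.84). Between receptors r was 0.75 for FGFR1 with FGFRL1, 0.61 for FGFR2 with FGFR3 and -0.64 for FGFR1 with FGFR2. The points share libraries and the GC trend of the chemicals. With treatment means removed the same values were 0.72, 0.75 and -0.64.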

How the data were processed

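RNA of AALE lines was sequenced with SFL as single-end reads in 95 samples. Per the labels, the authors trimmed reads with cutadapt 1.12, checked them with FastQC 0.11.5, aligned them with STAR 2.5.2b to hg19 and counted genes with featureCounts. The deposited values are raw counts of reads per gene, 1 file per sample. The level of 3 reads given as CPM covers counting error only. Groups were taken from the sample labels. Here counts were tested with limma-voom (R 4.3.3, limma 3.58.1, edgeR 4.0.16 for TMM scaling) on genes that averaged over 1 read in the samples compared, with Benjamini-Hochberg adjustment over all genes tested and a threshold of 0.05. Genotype comparisons used treatment as a covariate, and chemical comparisons genotype. Intervals are 95% intervals from the SE. CPM and log2 CPM used TMM-scaled totals, and log2 CPM a prior count of 2. For the GC and length correction, 86.9% of symbols were matched to GENCODE on GRCh37, and a loess trend (span 0.3) was removed per sample. Other settings tried were DESeq2 1.42.0, the quasi-likelihood test of edgeR, RLE size factors, other count filters, a replicate block, leaving out replicates, and subsets of samples. Scripts were tested on simulated data. Replicate numbers did not pair the samples. Named pathway genes were the 3 with the largest change per list and direction among those called, of which some are given. The receptors and lists were chosen with earlier results of these data known.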

Additional observations from a re-analysis of the deposited data

Results flagged for a closer look

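The response of FGFR3 to the chemicals differed between the 7 genotypes in the interaction test of limma-voom (adjusted p = 0.0374), which is why it is listed here. The difference between BaP and DMSO was 0.84 in the CDKN2A line and 0.07 in the FAT1 line in mean log2 CPM.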

How the results depend on the processing

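Of 80 receptor results, 57 kept their side of the threshold under every alternative run, and kept their direction where they were called. Changes of direction among values that were not called are not counted in this. Of the 30 that passed, 14 passed under all alternatives. Those 14 included 5 fits of FGFR1 in the FGFR1 line, which share samples and in which the gene itself was introduced. The others were FGFR3 in the NRF2 line, FGFR2 and FGFR3 in the NRG1 and PIK3CA lines, and FGFRL1 in the FAT1 line. They also held FGFR3 and FGFR4 in the CDKN2A line, and FGFR2 under CSC. For the rest the cause was not tested. The 2 libraries left out were chosen after seeing the data. FGFR4, with a mean of 5.80 reads, was the receptor most limited by depth. It was absent from the filter of a mean count of at least 10, and so had 13 alternatives in the CDKN2A line where FGFR3 had 14.

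With the GC and length correction, alone and with the replicate block, FGFR3 became -0.27 and -0.27 under CSC, -0.064 and -0.067 under BaP, and 0.020 and 0.021 under NNK. FGFRL1 became 0.0074 and 0.0089 under CSC, -0.23 and -0.24 under BaP, and -0.12 and -0.12 under NNK. FGFR1 became 0.16 and 0.16 under CSC, 0.16 and 0.14 under BaP, and 0.10 and 0.10 under NNK, and FGFR4 0.078 and 0.063 under NNK. FGFR2 in the FAT1 line became 0.36 and 0.37, and FGFRL1 in GFP against HcRed 0.27 and 0.27, all called. FGFR1 in the NRG1 line was called only with both corrections, at 0.29. The FGFR3 interaction had adjusted p = 0.265 and 0.243.

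With DMSO samples only, FGFR2 in the NRF2 line was 0.48, FGFRL1 in the PIK3CA line 0.0030 and FGFR1 in the CDKN2A line 0.10, none called, while FGFR3 in the FAT1 line was called at 0.48. With control lines only, FGFR1 was 0.32 under CSC, -0.095 under BaP and 0.23 under NNK, FGFR2 -0.41, FGFR3 0.29 and FGFRL1 0.028 under BaP, and FGFR4 0.91 under NNK, none called. FGFRL1 in the PIK3CA line lost its call with DESeq2 (0.20) and with all genes of at least 1 read (0.21). FGFRL1 in the CDKN2A line was called by edgeR (0.20), DESeq2 (0.22), RLE size factors (0.21) and 1 fit of all 95 samples (0.20). FGFR1 under BaP lost its call with edgeR (0.22), DESeq2 (0.26) and genes of at least 1 read (0.26). With that filter FGFR3 under CSC (0.16) and FGFR4 under NNK (0.50) lost theirs. FGFR4 under NNK also did in 1 fit of all samples (0.47) and without the 2 libraries (0.45), where FGFR1 in GFP against HcRed was called at -0.33. With all 8 genotypes FGFR3 under CSC was 0.12. The FGFR3 interaction had adjusted p = 0.0598 with all 8 genotypes, and 0.139 with DESeq2 and with genes of at least 1 read.

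Leaving out each replicate number in turn changed calls of FGFRL1 in the PIK3CA line (0.16 to 0.28), FGFR1 in the FAT1 line (-0.77 to -0.35) and in the CDKN2A line (0.17 to 0.70), and FGFR1 (-0.47 to -0.029) and FGFR3 (-0.24 to -0.11) in GFP against HcRed. It also changed those of FGFR3 under CSC (0.11 to 0.20), FGFR1 under BaP (0.21 to 0.34) and NNK (0.22 to 0.41), FGFR4 under NNK (0.49 to 0.59) and the FGFR3 interaction (adjusted p = 0.0453 to 0.479).

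The replicate block changed 0 of 80 calls. It moved the number of genes called by over 1.5 times only for the FGFR1 line under BaP, from 201 to 451. Such a block assumes shared numbers that the data did not bear out. In the FGFR1 line, genes called under DMSO, CSC, BaP and NNK went from 265, 418, 201 and 338 to 83, 86, 48 and 85 with DESeq2, and under CSC to 212 with genes of at least 1 read. BaP also gave 400 with both corrections and 380 in 1 fit of all samples. With DMSO samples only the counts fell from 1934 to 265 in the FGFR1 line, 3081 to 1005 in NRF2, 1530 to 287 in NRG1, 3996 to 1228 in PIK3CA, 6853 to 3752 in FAT1, 8291 to 5408 in CDKN2A and 6382 to 2518 in GFP against HcRed. Leaving out a replicate gave as few as 1034 in the FGFR1 line, 2008 in NRF2 and 720 in NRG1. The GC and length correction took CSC from 7750 to 4460 genes, BaP from 7155 to 3279 and NNK from 7063 to 2157, and the share that rose from 48.9% to 61.0%, 49.6% to 61.8% and 49.7% to 63.9%. Control lines alone gave 2683 under BaP and 4452 under NNK. The interaction over 7 genotypes went from 371 to 171 with DESeq2 and 210 with the correction, and that of the FGFR1 line from 5 to 3 with edgeR and 1 with DESeq2. Genes of at least 1 read moved the median of all genes by 0.13 to 0.18 under the chemicals.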
